A study of Mus musculus with 4 samples.

Results

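Mid-sized CpG islands on the mouse CpG island array were compared between their ends and their middle. Autosomal probes were joined into a region wherever the next probe lay at most 1000 bp away, and the 2993 regions with 8 to 14 probes were kept, of 14177 autosomal regions in all. In each region the first 2 and the last 2 probes were the edge and the remaining 4 to 10 probes the core. The value of a region was the mean log2 ratio of its edge minus that of its core. A value above 0 thus stands for a higher ratio of captured methylated DNA to input DNA at the ends. Edge and core are read by different probes, and the part of probe response or CpG content in this difference was not tested. These regions held 29115 of 85850 autosomal probes, lay on all 19 autosomes with between 87 (chromosome 16) and 257 (chromosome 11) on each, and were 622 to 3354 bp long, with a median of 1210 bp.

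The DNA came from whole brains of C57BL/6J mice (strain label C57BL/6) on day 1 after birth. Their mothers had been given 25 uL of vehicle (Sham) or of a titanium dioxide nanoparticle suspension at 100 ug per mouse (TiO2-H) into the trachea during pregnancy. The labels give gestational day 14 in the sample descriptions and day 10.5 in the treatment protocol. Each of the 4 groups (Sham and TiO2-H, male and female) was 1 pool of DNA from 2 offspring of each of 5 Sham or 6 TiO2-H dams, hybridised on 1 array, so pools and not animals are compared throughout. Whole brain mixes neurons, glia, vessels and blood, and a difference in the share of cells cannot be told apart from a difference within cells. Methylated fragments of mainly 200 to 800 bp were captured with an antibody to 5-methylcytosine (MeDIP) and carried Cy5, and unselected input DNA carried Cy3. The ratio of Cy5 to Cy3 is therefore a relative enrichment and not a percentage of methylated cytosines, and a fragment can reach over both edge and core of the same region.

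CpG islands are stretches rich in CpG dinucleotides, and many of them hold the start of a gene. In most tissues the middle of such an island is largely free of methylation, whereas the flanks, known as shores, are more variable and are often methylated. Islands that are methylated throughout include the imprinting control regions and the promoters of genes that act only in germ cells.

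The depth of the measurement differed among arrays. Cy5 was well above background, by the scanner software's call, at 51.1% of probes on Sham male, 59.4% on Sham female, 25.3% on TiO2-H male and 32.9% on TiO2-H female. Cy3 was well above background at 93.9% to 98.1% of probes. Input signal at X-linked probes, as a difference of medians from autosomal probes, was -0.75 (log2) on Sham male and 0.03 on Sham female. It was 0.03 on TiO2-H male and -0.74 on TiO2-H female, so both TiO2-H arrays went against their sex labels. They are called by their labels below, and pairs by sex are given as labelled and crossed. Where 4 values follow each other they stand for the Sham pools of males and females and then for the pools labelled as TiO2-H males and females.

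The typical mid-sized island had slightly lower enrichment at its ends than in its middle on 3 of the 4 arrays. The median edge minus core was -0.28 on Sham male, -0.10 on Sham female, 0.02 on TiO2-H male and -0.21 on TiO2-H female. The ends lay above the middle in 39.0%, 43.4%, 51.1% and 41.3% of regions in the same order. The mean of the 4 medians was -0.14 ± 0.13 (SD, n = 4 arrays), and an exact two-sided sign-flip test over the arrays gave p = 0.25, where the smallest p that 4 arrays allow is 0.125. The spread among regions was wider than any of these medians, with an interquartile range of 0.82 on Sham female and of 1.21 to 1.45 on the other three.

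**Figure D1:**
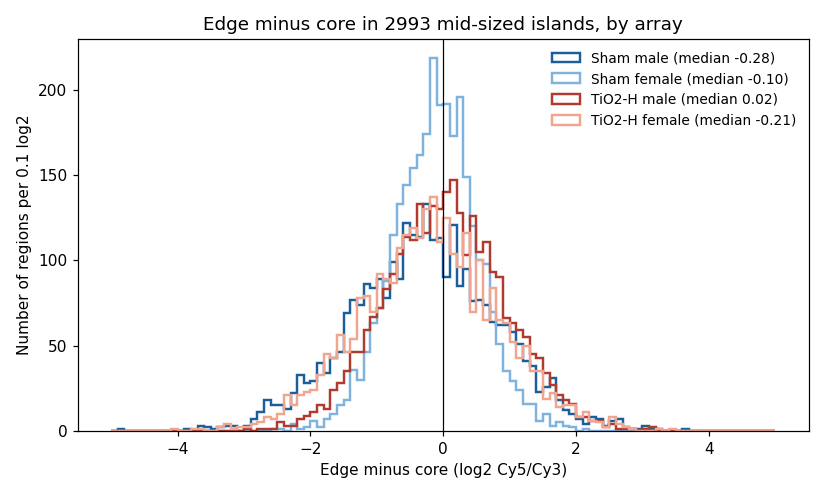
Number of regions (y axis) by edge minus core in log2 units (x axis) for the 2993 mid-sized islands, with 1 line for each array. The 4 distributions overlap almost wholly around 0, with medians of -0.28, -0.10, 0.02 and -0.21, and that of Sham female is the narrowest.

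The order of the regions was shared by the arrays. The correlation of edge minus core between 2 arrays over the 2993 regions ranged from 0.63 (Sham female with TiO2-H male) to 0.90 (Sham male with TiO2-H female), as a description of points that share their probes and probe sequences. The ends lay above the middle on all 4 arrays in 720 regions (24.1%, beside 26.3% of all 6664 autosomal regions with 6 or more probes). They lay below it on all 4 arrays in 1049 regions (35.0%, beside 35.2%), and the remaining 1224 regions had both signs.

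Single regions stood apart from 0 in both directions. With limma fitted over the 6664 autosomal regions, 592 of the 2993 islands had higher ends (19.8%, where 22.1% of all regions fitted passed in that direction) and 907 had lower ends (30.3%, where 31.2% passed), at an adjusted p under 0.05. Both shares were near those of all regions, so the mid-sized islands did not stand out by them. The median difference was 0.94 in the islands with higher ends and -1.0 in those with lower ends, with a median standard error of 0.23 over all members. Of the called islands, 546 with higher ends and 841 with lower ends had the same sign on all 4 arrays. By size alone, 213 islands had ends at least 1.5-fold above the middle on every array (7.12%, beside 8.33% of all regions) and 367 had ends at least 1.5-fold below it (12.3%, beside 13.6%).

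The islands with higher and with lower ends were close to mirror images in level. They were called on edge minus core, so opposite levels at edge and core follow largely from that choice and are a description. In the 592 islands with higher ends the median centred log2 ratio, averaged over the 4 arrays, was 0.54 at the edge and -0.45 in the core. In the 907 islands with lower ends it was -0.55 at the edge and 0.56 in the core. The islands that were not called lay near the autosomal median in both places, at -0.05 and -0.02.

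The Cy3 and Cy5 signals behind these ratios differed with place. The outermost probe at each end had a median log2 input signal 0.62 to 0.95 below that of the second probe, on every array. Cy5 was well above background at 28.1%, 41.1%, 11.9% and 16.8% of outermost probes and at 53.7%, 62.1%, 24.5% and 33.0% of second probes. The outermost probe was thus the dimmest place of an island in both channels. From the third probe inward both were almost level, with log2 input signal between 9.59 and 10.0 on all arrays.

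The enrichment itself changed with place in the same way on 3 arrays. On Sham male the median centred ratio was -0.29 at the outermost probe, -0.16 at the second and 0.02 to 0.17 from the third inward. On TiO2-H female it was -0.24, -0.16 and between -0.0042 and 0.12. On Sham female it was -0.12, -0.10 and between -0.05 and 0.01. On TiO2-H male the outermost probe was higher than the second by 0.28, at 0.08 against -0.20, while the third to the seventh probe lay between -0.13 and -0.0011.

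**Figure D2:**
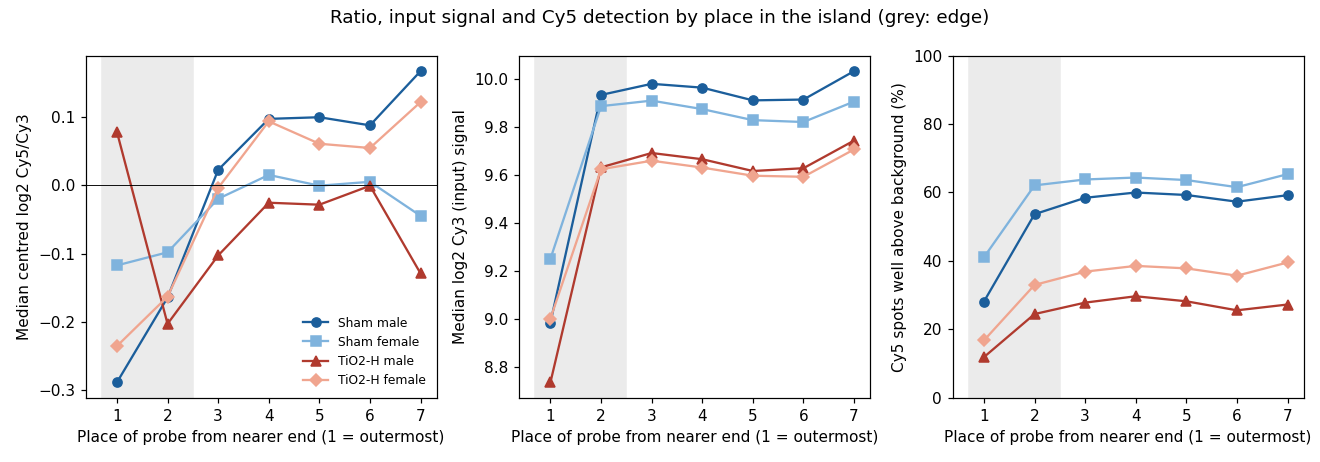
Median centred log2 ratio (left), median log2 input signal (middle) and percentage of Cy5 spots well above background (right) by the place of a probe from the nearer end of its island, with 1 line for each array and the edge in grey. Input signal and Cy5 detection drop at the outermost probe on all 4 arrays, and the ratio there is above that of the second probe only on TiO2-H male.

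The definition of the edge therefore moved the median of that array. With the second probe from each end alone as the edge, the medians were -0.24, -0.10, -0.17 and -0.21, all below 0, and with the outermost probe alone they were -0.36, -0.15, 0.15 and -0.31. In the 237 islands that kept at least 2 edge and 2 core probes with both channels well above background on all 4 arrays, the medians were -0.12, -0.07, -0.13 and -0.08. With every Cy5 spot below the lowest signal well above background raised to that signal, they were 0.12, 0.10, 0.35 and 0.13, and with normexp background correction 0.13, -0.01, 0.25 and 0.16. The direction of the typical difference thus turned with the treatment of dim Cy5 spots. So did the balance of calls, from 592 islands with higher and 907 with lower ends to 1130 and 652 with Cy5 raised. Over all 6664 regions it went from 1470 and 2082 to 2543 and 1528. Under normexp correction 0 islands passed limma's adjusted threshold in either direction (971 higher and 383 lower at an unadjusted p under 0.05).

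Many spots of the called islands had dim Cy5. In the islands with lower ends, Cy5 was not well above background at 72.1% of edge spots and 44.1% of core spots. In those with higher ends the shares were 58.1% and 61.2%. Edge minus core of the log2 input signal had a median of -0.79 in the islands with higher ends, -0.24 in those with lower ends and -0.44 in those not called, and the part of these signals in the calls was not tested. When only the dim spots of the lower side were raised to the lowest Cy5 signal well above background on their array, 367 of the 592 islands with higher ends and 436 of the 907 with lower ends kept their direction.

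Most of the called islands kept their sign under the settings given next, which reuse the arrays and many of the spots behind the calls. With every dim Cy5 spot raised, 586 of the 592 still had higher ends and 760 of the 907 still had lower ends. Among the 580 called islands measured at probes with Cy5 above background on at least 2 arrays and Cy3 on all 4, 258 of 287 and 284 of 293 did. Under normexp correction 517 of the 592 and 523 of the 907 did. Fewer passed the threshold again. With 1 edge probe at each end, 852 of the 1499 called islands were called the same way and 43 the other way. The counts were 1046 and 32 with loess, 1027 and 20 with Cy5 raised, and 0 and 0 under normexp.

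Both ends of an island seldom departed from the middle together. The correlation between the left and the right end, each minus the core, was between 0.26 and 0.29 on the 4 arrays, where both values share the same core. Both ends lay at least 1.5-fold above the core on all 4 arrays in 44 islands and at least 1.5-fold below it in 152. One end alone did so upward in 508 islands and downward in 506. In 45 islands one end was 1.5-fold above and the opposite end 1.5-fold below the core, and in the remaining 1738 neither end passed 1.5-fold on all arrays.

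The difference ran with the level of the core. When islands were ranked by the core on Sham male, the medians of edge minus core on the other three arrays (Sham female, then both TiO2-H) were 0.21, 0.65 and 0.53 in the lowest of 5 groups and -0.61, -0.58 and -1.06 in the highest. Ranked by the core on TiO2-H female, the medians on the Sham male, Sham female and TiO2-H male arrays went from 0.58, 0.25 and 0.72 to -1.25, -0.63 and -0.63. Islands with little enrichment in the middle had higher ends, and islands with much enrichment in the middle had lower ends. The core enters both measures through the same probes, so a probe's own affinity is shared between them, and its part was not tested.

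**Figure D3:**
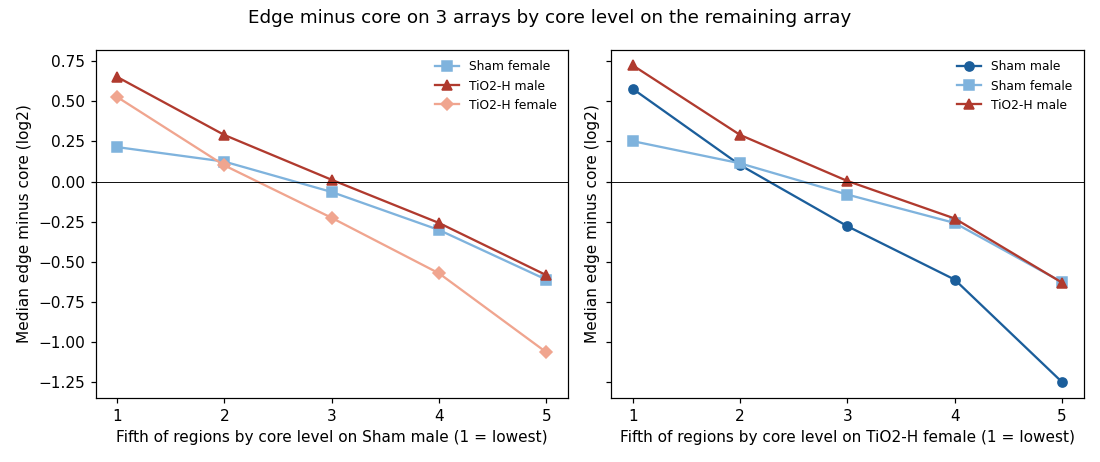
Median edge minus core in log2 units (y axis) in 5 groups of the 2993 islands ranked by core level (x axis, 598 or 599 islands in each), with the ranking taken from Sham male (left) or the TiO2-H female array (right) and the values from the remaining arrays. All lines run from above 0 in the lowest group to below 0 in the highest.

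Island length went with small differences in the median. In 3 groups by length (622 to 1059, 1060 to 1383 and 1384 to 3354 bp) the medians were -0.22, -0.29 and -0.31 on Sham male, and -0.08, -0.10 and -0.11 on Sham female. They were 0.06, 0.03 and 0.00012 on TiO2-H male and -0.16, -0.22 and -0.23 on TiO2-H female. On each array the median thus fell over these 3 groups. Among members with 8 probes, the smallest admitted, the medians on the 4 arrays were -0.28, -0.09, -0.0021 and -0.20, and among regions with 7 probes, just outside, they were -0.29, -0.11, 0.02 and -0.24. Among members with 14 probes they were -0.31, -0.12, -0.00018 and -0.27, and with 15 probes -0.02, -0.04, 0.11 and -0.08. Between these sizes they did not fall steadily with probe number. Members with 11 probes had -0.20, -0.06, 0.06 and -0.14, and those with 13 probes -0.23, -0.09, 0.16 and -0.11.

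Small regions, large regions and X-linked regions were set beside the mid-sized autosomal islands array by array. Medians in the 3239 autosomal regions with 6 to 7 probes were higher by 0.02 ± 0.01 (SD, n = 4 arrays; exact sign-flip p = 0.125, adjusted over the 3 comparisons 0.375). In the 432 regions with 15 or more probes the difference was 0.11 ± 0.11 (exact p = 0.25, adjusted 0.375), with 0.22 on Sham male and -0.02 on TiO2-H male. In the 93 X-linked regions with 8 to 14 probes it was -0.08 ± 0.20 (exact p = 0.75, adjusted 0.75). No comparison with 4 arrays can pass 0.05, so these values describe the sizes only. The X-linked islands were more enriched throughout, with core medians of 0.71 to 1.10 on the 4 arrays against -0.04 to 0.14 in the autosomal islands.

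Islands from the high and the low end of the range show what a large difference consisted of. The region on chr5:32437178-32439313 (mm9, as for every island below) had 13 probes and no gene name. Its edge levels were 2.54, 1.46, 2.42 and 2.23 on the 4 arrays, and its core levels -0.47, -0.17, -0.33 and -0.17. The edge level was above the core level on every array, and the difference was smallest on Sham female. The mean difference was 2.45 (SE 0.25, limma adjusted p = 2.7601e-06), a 5.45-fold difference, and it was 1.44 with the dim core spots raised. It did not pass the test with normexp background correction (0.61, limma adjusted p = 0.065) or with gaps of up to 2000 bp, which change the probes of the region (0.52, limma adjusted p = 0.060).

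The probes of this island were uneven. The second probe from the left end read 3.58, 2.39, 2.75 and 3.44 on the 4 arrays and the second from the right end 3.09, 1.79, 1.81 and 2.81, with Cy5 well above background on all of them. At both outermost probes Cy5 was not well above background on any array, so their values of 0.57 to 3.72 were measured with dim Cy5. In the core, 23 of 36 spots were dim, and single probes on Sham male went down to -3.38.

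The other islands with higher ends had 2.25 to 2.42. Among those with a gene name, Fam131b (chr6:42273601-42274906) had 3.13, 0.72, 2.57 and 3.28 on the 4 arrays, Rnf144a (chr12:27099275-27100269), a ubiquitin ligase, 3.05, 1.59, 2.25 and 2.36. Dut (chr2:125072867-125073768), which removes dUTP from the nucleotide pool, had 2.98, 0.92, 2.59 and 2.74, and Ptk7 (chr17:46765653-46766556), a receptor of planar cell polarity, 2.68, 1.33, 2.35 and 2.66. The Sham female array gave the lowest value in each of these. Its log2 ratios also had the narrowest spread over all autosomal probes. The median absolute deviation was 0.60 on that array and 0.91 to 1.08 on the others. Islands with no gene name lay on chr19:50752526-50753429 (mean 2.29) and chr17:33821627-33822644 (2.26). The latter had 12 of 16 edge spots with Cy5 not well above background. With 1 edge probe at each end its mean was -0.00040 and that of Fam131b 0.62 (limma adjusted p = 0.084). With dim core spots raised, these 6 islands kept differences of 1.11 to 1.94.

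The lowest island lay on chr14:51549995-51551045 and had no gene name. Its edge levels were -1.76, -0.49, -0.44 and -1.13, and its core levels 3.09, 2.04, 2.19 and 2.87, the reverse of the chr5 region. The mean difference was -3.50 (SE 0.32, limma adjusted p = 1.3246e-06). Of its 16 edge spots 14 had Cy5 not well above background, and with these raised the difference was -2.40.

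Gdnf, the glial cell line-derived neurotrophic factor, had the next lowest island (chr15:7760094-7761297). Its edge minus core was -3.51, -2.22, -2.94 and -3.25 on the 4 arrays (mean -2.98, SE 0.24, limma adjusted p = 6.4008e-07), or -1.43 with dim edge spots raised and -0.93 with gaps of up to 2000 bp. Cluh (chr11:74462698-74463616), an RNA-binding protein for mitochondrial messages, had -3.70, -1.90, -1.96 and -3.10. Edge levels of both were below the autosomal median on every array and core levels were above it, the lowest being 1.35 for Gdnf on Sham female. The other five, on chr2:165818066-165819088, chr5:115017057-115018551, chr19:36992960-36993793, chr5:3802515-3803686 and chr4:148274413-148275940, had means of -2.81 to -2.60, and -2.29 to -0.86 with dim edge spots raised. In the chr2 region all 16 core spots were well above background. With loess within arrays, the 7 islands with higher ends given here had means of 0.56 to 2.95 and the 8 with lower ends -1.80 to -0.48. With normexp correction these means were 0.27 to 1.27 and -1.11 to -0.10, and 0 of the islands passed limma's adjusted threshold.

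**Figure D4:**
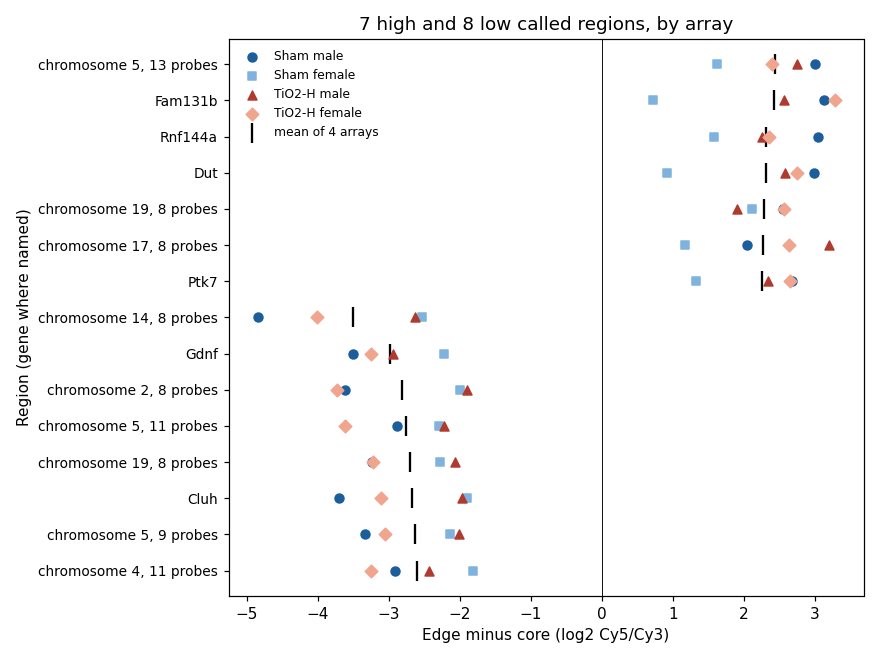
Edge minus core in log2 units (x axis) on each array (coloured symbols) and their mean (black bar) in 7 islands of the high end and the 8 lowest islands that passed limma's adjusted threshold with the same sign on all 4 arrays. These regions were picked for these values, so the gap between the sets is a description. Sham female, the array with the narrowest spread, lies nearest to 0 in 10 of the 15 rows.

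The islands nearest to the median of all members were not flat. The regions on chr12:70297724-70299207 (13 probes) and chr4:140257123-140259035 (10 probes) both had a mean edge minus core of -0.13, with adjusted p of 0.63 and 0.62 in limma's fit. In the first, single probes ranged from -2.11 to 3.71 on Sham male, with a core probe at 3.71, 2.78, 2.89 and 3.93 on the 4 arrays and an edge probe at 3.20, 1.90, 1.68 and 3.17. In the second, a probe near the centre read 2.03, 1.24, 1.67 and 1.89. These high probes stood at the same place on all 4 arrays. Low values were less regular, the last probe of the chr12 region reading -2.11, -0.80, -0.07 and -0.28.

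**Figure D5:**
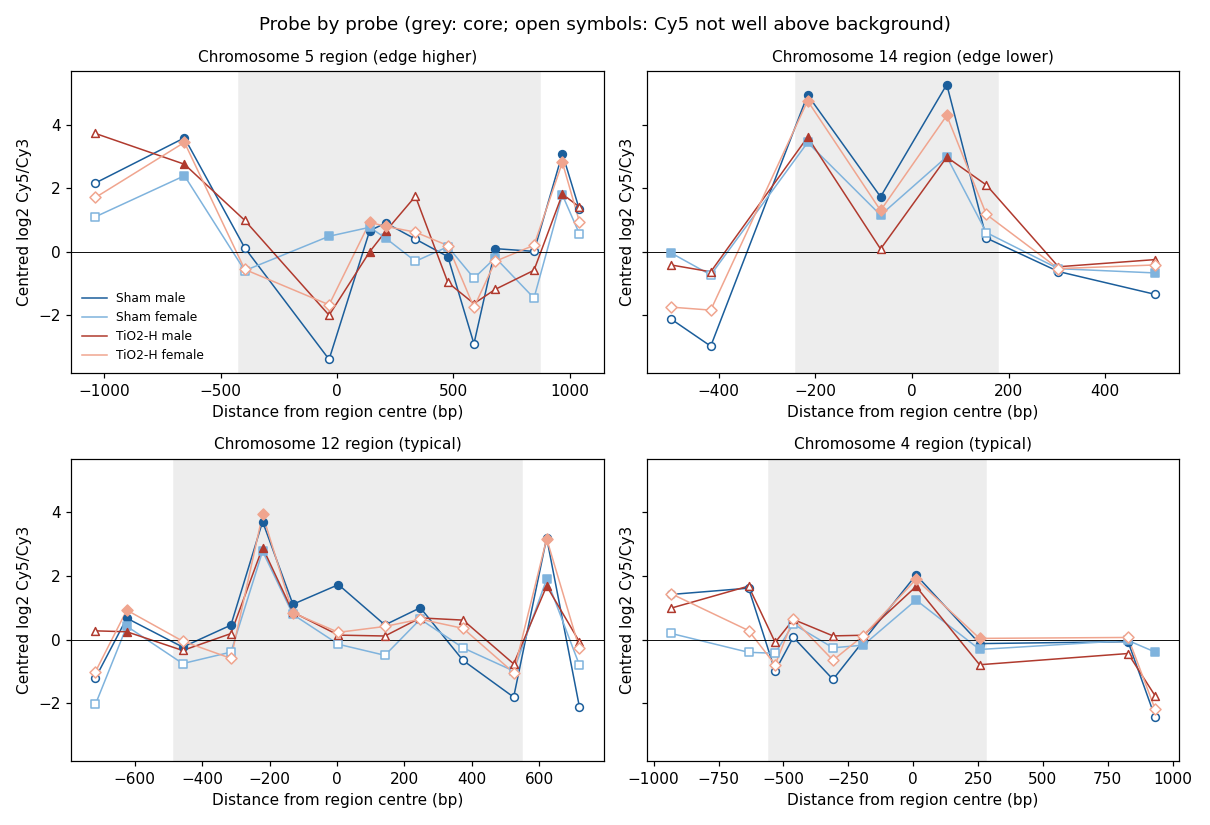
Centred log2 ratio (y axis) of each probe by its distance from the region's centre in bp (x axis) in the chromosome 5 island with higher ends, the lowest island on chromosome 14 and 2 islands nearest to the median, with 1 line for each array, the core in grey and open symbols where Cy5 was not well above background. In the chromosome 5 island the second probe from each end rises above the middle, in the chromosome 14 island the middle rises to 5.26 on Sham male, and in the other islands single probes stand out at either place.

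A gene name could be given to 1212 of the 2993 islands. Names came from the study's own probe annotation, of which a shortened list ordered by its male ratio was at hand, so they are not a random draw. Of the named islands 242 had higher ends (20.0%, beside 19.8% of all members) and 355 had lower ends (29.3%, beside 30.3%). Their median difference was -0.11, and both shares and the median were close to those of all members (median -0.13). Of these, 711 matched 1 promoter window in RefSeq (GRCm38.p6) and no other island. In the 250 bases upstream of the start, the median number of CG dinucleotides (the letters CG, which read the same on both strands) was 19 in 151 islands with higher ends, 22.5 in 202 with lower ends and 21 in 358 not called, against 6 over all 32851 promoters. The interquartile ranges, 15 to 25, 16 to 29 and 14 to 26, overlapped widely.

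Promoter windows of islands with higher and with lower ends, each named by the probe annotation, are shown as examples of how CG dinucleotides lie before the starts of such genes. Fam131b, Ptk7 and Cluh came from either end of the range. Ezh2 came from its gene list, with a mean edge minus core of -1.44 (0.12 with dim edge spots raised). Fam131b (chr6:42324641-42324890, minus strand) and Ptk7 (chr17:46629505-46629754, minus strand) had higher ends, and Cluh (chr11:74649254-74649503, plus strand) and Ezh2 (chr6:47595031-47595280, minus strand) had lower ends. They are from RefSeq (GRCm38.p6), were not placed on the mm9 regions, and are written 5′ to 3′ toward the start with every CG in capitals.
Fam131b: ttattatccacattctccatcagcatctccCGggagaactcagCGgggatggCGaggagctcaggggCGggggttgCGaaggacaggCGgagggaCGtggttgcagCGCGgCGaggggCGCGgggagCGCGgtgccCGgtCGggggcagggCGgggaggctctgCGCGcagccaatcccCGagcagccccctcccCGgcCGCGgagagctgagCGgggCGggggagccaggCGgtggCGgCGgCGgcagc
Ptk7: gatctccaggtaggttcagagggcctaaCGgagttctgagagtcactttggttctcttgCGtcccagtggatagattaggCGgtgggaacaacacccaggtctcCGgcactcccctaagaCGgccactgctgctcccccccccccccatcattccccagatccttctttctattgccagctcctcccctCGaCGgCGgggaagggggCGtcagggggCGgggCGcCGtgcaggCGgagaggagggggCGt
Cluh: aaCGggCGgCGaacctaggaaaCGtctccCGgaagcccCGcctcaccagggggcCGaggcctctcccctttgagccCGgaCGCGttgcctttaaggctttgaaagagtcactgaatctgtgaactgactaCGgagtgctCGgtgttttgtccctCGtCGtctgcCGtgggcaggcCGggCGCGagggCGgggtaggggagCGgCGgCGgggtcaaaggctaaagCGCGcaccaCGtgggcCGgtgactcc
Ezh2: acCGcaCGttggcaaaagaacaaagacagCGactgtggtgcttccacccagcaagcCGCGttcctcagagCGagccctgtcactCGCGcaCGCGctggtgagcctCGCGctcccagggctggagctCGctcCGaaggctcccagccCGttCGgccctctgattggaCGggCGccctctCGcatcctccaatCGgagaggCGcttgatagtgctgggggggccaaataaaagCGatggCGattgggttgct
Fam131b held 29 CG dinucleotides in these 250 bases, a number reached by 6.78% of all promoters, and Ptk7 held 14 (29.4% of promoters hold as many). Cluh held 26 (9.59%) and Ezh2 23 (13.3%). Fewer were found before Foxe3 (higher ends, 6 CG, reached by 50.4% of promoters) and Nkx2-2 (lower ends, 8 CG, 43.0%), whose windows are not shown.

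Genes of development formed the largest named group. Transcription factors of development matched 59 islands, of which 15 had higher ends, 18 had lower ends and 26 were not called. The shares of 25.4% higher and 30.5% lower stand beside 19.8% and 30.3% of all members, and the median was -0.01 beside -0.13. Nkx2-2, a factor of the ventral neural tube, was the lowest of them (chr2:147019493-147020986), with -3.35, -1.68, -2.39 and -2.59 on the 4 arrays (mean -2.50). Foxe3, a lens factor, was the highest (chr4:114597578-114598733), with 1.40, 1.39, 1.86 and 2.06, and its mean of 1.68 was 0.05 with the second probe from each end as the edge. Sox17, an endoderm factor, followed (mean 1.61, or 0.25 with dim core spots raised), and 15 of its 16 edge spots had dim Cy5. Ligands, receptors and modulators of developmental signals matched 15 islands, of which 0 had higher and 2 (13.3%) had lower ends. Bmp8a was the lowest at -0.88 (adjusted p = 0.0065 in limma), or -0.03 with dim edge spots raised, and did not pass with 1 edge probe at each end (-0.22). Fgf12 (0.56) and Rarg (0.52) were the highest of them and did not pass.

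Of 29 islands matched by housekeeping names, which stand for functions used in every cell, 9 had higher ends (31.0%, beside 19.8% of all members), 10 had lower ends (34.5%, beside 30.3%) and 10 were not called, with a median of -0.09. The name pattern also took in Rps6ka4, a signalling kinase. Eif4e, the cap-binding translation factor, had 1.52, 1.47, 2.35 and 2.28, and Ndufaf2, an assembly factor of respiratory complex I, a mean of 1.47 (0.34 with dim core spots raised). Vps29, a subunit of the retromer, had -2.78, -1.51, -1.47 and -2.11, with all 16 edge spots dim. Its mean of -1.97 shrank to -0.34 with these raised.

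Genes of nerve cell function had islands of both kinds. Synapse and ion channel names matched 35 islands, with 5 higher (14.3%, beside 19.8% of all members), 6 lower (17.1%, beside 30.3%) and a median of -0.02, one of the matches being Kcnq1ot1, an antisense RNA. Drd1, the D1 dopamine receptor, had 2.32, 0.74, 1.95 and 2.51 (mean 1.88), and did not pass with 1 edge probe at each end (0.57). Adhesion and guidance names matched 15 islands, with 2 higher (13.3%), 5 lower (33.3%) and a median of 0.11. Sema5a, a semaphorin, was the highest at 1.15 with -0.03 on Sham female, Unc5b, a netrin receptor, followed at 0.53, and Pcdhga12, a clustered protocadherin, was the lowest at -1.19. With the dim spots of the lower side raised, all 3 changed sign, to -0.05, -0.29 and 0.41.

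The imprinted islands of Grb10, Peg3 and Kcnq1ot1 were enriched at the ends and in the middle. Levels of Airn, which the list also matched, are not given here. Of 4 matched members 0 were called (19.8% higher and 30.3% lower among all members), with a median difference of -0.01. Grb10 had an edge level of 1.59 and a core level of 1.36, Peg3 1.34 and 1.13, and Kcnq1ot1 0.64 and 1.08, as means of the 4 arrays, so both places of these lay above the autosomal median. Of 3 islands matched by a list of germline names, 1 had higher and 2 had lower ends (19.8% and 30.3% of all members did). That the listed genes act only in germ cells was not checked. Dazl, an RNA-binding protein of germ cells, had 1.30 at the edge and 1.93 in the core, and Sycp1, of the synaptonemal complex, 1.07 and 2.12, and both had lower ends (-0.63 and -1.05, or -0.06 and -0.14 with dim edge spots raised). Nanos1 had higher ends (1.31, or 0.30 with 1 edge probe at each end, which did not pass), from a core of -0.31.

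Of 5 islands matched by names of genes that write, read or erase DNA and histone methylation, 1 had higher and 2 had lower ends (19.8% and 30.3% of all members did). The name pattern also took in Zbtb46, a transcription factor. Kdm2b, a demethylase that binds unmethylated CpG, had a mean of 0.74, which was -0.02 with dim core spots raised. Ezh2, the methyltransferase of Polycomb complex 2, had -1.55, -0.94, -1.42 and -1.84 (mean -1.44). Kdm7a had 0.05. For Ezh2 14 of 16 edge spots had dim Cy5, and with these raised the value was 0.12. Hs6st3, a heparan sulfate sulfotransferase, had -0.31, -0.55, -0.39 and -0.31 (mean -0.39, limma adjusted p = 0.13).

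Whether exposure changed the difference between edge and core was asked with 2 TiO2-H against 2 Sham pools. No island passed in limma's fit over the 6664 regions (0.0% of all regions in either direction), and the lowest adjusted p among members was 0.78. The same fit without variance moderation also gave 0 calls. At an unadjusted p under 0.05, 54 islands were higher in TiO2-H (1.80%, beside 2.39% of all regions) and 23 were lower (0.768%, beside 1.05%). The median difference was 0.12, with a median standard error of 0.46 for a single island. On simulated data, limma at this size recovered 0 of 200 planted differences of 1 (log2), 121 of 200 of 2 and 197 of 200 of 3, so differences of up to 2-fold were not detectable here. An exact two-sided permutation test of the 4 array medians gave p = 0.667, where the smallest possible p is 0.333.

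The shift was not the same for the labelled sexes. The array median moved by 0.31 from Sham male to TiO2-H male and by -0.11 from Sham female to TiO2-H female. With the TiO2-H sex labels crossed, as the X-linked input signal goes, it moved by 0.07 (Sham male to TiO2-H female) and by 0.13 (Sham female to TiO2-H male). In the male pair the median change was 0.15 at the edge and -0.20 in the core. The arrays of that pair share a slide, as do those of the female pair, so labelled sex and slide cannot be told apart.

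Counts by fold followed the pair chosen, and the same fold was used on arrays of unlike spread. From Sham male to TiO2-H male, edge minus core was higher by at least 1.5-fold in 1023 islands (34.2%, beside 34.4% of all regions) and lower in 262 (8.75%, beside 10.7%). From Sham female to TiO2-H female it was higher in 454 (15.2%, beside 15.8%) and lower in 706 (23.6%, beside 25.1%). The pools that share an exposure also differed. From Sham male to Sham female 45.0% of islands passed 1.5-fold in either direction (46.2% of all regions), against 42.9% and 38.8% in the exposure pairs (45.1% and 40.9%). Between both TiO2-H pools 32.2% passed (35.7% of all regions), and between Sham female and TiO2-H male 39.3% (41.4%). The fewest passed between Sham male and TiO2-H female, 21.0% (24.9%). In 589 islands both TiO2-H arrays lay above both Sham arrays (18.7% of all regions did) and in 339 both lay below (11.8%).

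The islands with the largest exposure differences did not pass the adjusted threshold. Rgl2, an effector of Ras-like GTPases (chr17:34066027-34067579), had edge minus core of 0.0056 and 1.22 in the Sham pools and -1.39 and -1.56 in the TiO2-H pools (difference -2.09, SE 0.50, limma adjusted p = 0.78). The Sham and TiO2-H pools did not overlap, and the change lay in the edge, which went from 0.37 and 1.54 to -1.68 and -1.31. The regions on chr4:135803868-135804673 (-1.93) and of Jph3, a junctophilin of nerve cells (chr8:124276830-124277712, -1.68), followed. Upward, the region on chr4:147533784-147534930 had 1.13 and 0.65 in Sham and 3.02 and 2.55 in TiO2-H (difference 1.89, SE 0.46, adjusted p = 0.78). It was followed by chr6:88791472-88793101 (1.77) and by Clstn1, a postsynaptic calsyntenin (chr4:148960239-148961751, 1.56), whose core was -0.73 and 0.64 in Sham and -2.20 and -1.83 in TiO2-H. These 6 islands were picked for their difference. Cy5 was dim at 7 of 16 edge and 15 of 36 core spots for Rgl2, and at 8 of 16 and 10 of 16 for chr4:135803868-135804673. For Jph3 it was dim at 1 of 16 and 2 of 16, and for chr4:147533784-147534930 at 6 of 16 and 5 of 16. For chr6:88791472-88793101 the counts were 14 of 16 and 5 of 32, and for Clstn1 11 of 16 and 8 of 20. The part of dim spots in these differences was not tested.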

How the data were processed

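MeDIP and input DNA of 4 pools were measured on 2-colour arrays. Per the file headers, the authors used Agilent Feature Extraction 10.7.3.1, and positions are on mm9. Processed signals of both dyes were deposited as linear intensity values, background-subtracted and scaled by a factor per dye. The deposited series table held log10 ratios equal to those of the scanner files within 5e-10, with its centring not done. Its direction, Cy5 over Cy3, was that of the labels. Array medians before centring were -0.59, -0.34, -0.51 and -0.85 (log2).

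Control spots were left out, as were 12 flagged spots, each only on the array where it was flagged, and 0 spots were saturated. log2 of processed Cy5 over processed Cy3 was centred on the autosomal median of each array, with no loess. Edge minus core was fitted with limma 3.58.1 in R 4.3.3 (lmFit and eBayes, Benjamini-Hochberg over 6664 autosomal regions with 6 or more probes), against 0 over all 4 arrays (3 residual and 13.1 prior degrees of freedom) and as TiO2-H against Sham (2 and 12.5). In the fit against 0 the 4 pools, which differ in sex and exposure, stand as replicates, so its p-values measure the spread between these pools. Array medians were tested with exact permutations in Python 3.11.15. limma was tested on simulated data with the spread of the exposure fit, where the fit of edge against core recovered 114 of 200 planted differences of 1 and 200 of 200 of 2 (log2). The scanner files hold median spot signals, which were used for normexp (offset 50). Gene names came from the study's probe annotation, for 5298 probes, after position, chromosome and accession had been checked, and 444 of 5760 rows were dropped.

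Named islands were the 8 highest and 8 lowest called with 1 sign on all arrays, 3 highest and 3 lowest by exposure difference, the 2 highest and 1 lowest of each gene list, Hs6st3 (a gene the study also followed up by PCR), and 2 islands nearest to the median. Some islands that this rule names are not reported here. Members, gene lists and rules were chosen with earlier results of these data known. Alternatives changed the definition of edge, core and region, the filter on dim spots, the background correction, the normalization and the arrays used. Precision is limited by the number of arrays, 1 for each group.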

Additional observations from a re-analysis of the deposited data

Results flagged for a closer look

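The change in median edge minus core from Sham to TiO2-H ran in opposite directions for the labelled sexes. It was 0.31 from the Sham male to the TiO2-H male array and -0.11 from the Sham female to the TiO2-H female array. With 1 array for each group the difference between these changes was not tested, and both were above 0 when the TiO2-H sex labels were crossed (0.07 and 0.13).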

How the results depend on the processing

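Array medians, called counts and named islands were recomputed under 13 other settings, by leaving out each array, and under 4 settings chosen after seeing the data (outermost probe as edge, second probe as edge, probes of middling input signal, dim Cy5 raised to the lowest signal well above background). The mean of the 4 array medians turned to 0.14 with normexp and 0.18 with Cy5 raised. It was -0.33 with middling input, -0.060 with loess and -0.20 to -0.10 with each array left out. The cause was not tested.

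Islands with higher and lower ends numbered 592 and 907 as reported. With Cy5 well above background on at least 2 arrays they numbered 353 and 428 of 1222 islands tested, beside 637 and 781 of all 2258 regions tested. With it on 4 arrays they numbered 69 and 84 of 237 islands, beside 112 and 161 of all 446 regions. With normexp they numbered 0 and 0, also over all regions (971 and 383 islands at an unadjusted p under 0.05). Higher and lower ends numbered 280 and 647 among 1641 islands with probes of middling input (526 and 1055 of all 2788 regions). With Cy5 raised they numbered 1130 and 652 (2543 and 1528 of all 6664 regions). With each array left out, higher ends numbered 396 to 643 and lower ends 658 to 953 (1030 to 1574 and 1520 to 2162 of all 6664 regions).

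Exposure calls stayed at 0 except for 1 higher and 1 lower island with quantile normalization, 1 lower with a common spread, and 0 to 7 higher and 0 to 8 lower with an array left out: 7 and 8 without the Sham male array and 0 and 2 without the Sham female array. The remaining group of 1 array is then assumed to vary like the pair. No conclusion is therefore drawn from the counts with an array left out. Over all 6664 regions, quantile normalization gave 10 higher and 4 lower calls, and a common spread gave 4 and 2. Calls under these 2 settings were thus not particular to the mid-sized islands. Pairing the pools by labelled sex, which is the slide, as a block gave 0 calls. At an unadjusted limma p under 0.05 it gave 26 higher and 16 lower islands, beside 141 of all 6664 regions in either direction. The labels carry no replicate numbers for any further pairing.

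The male change in array median, 0.31, was 0.51 with 1 edge probe at each end, 0.52 with the outermost probe, 0.077 with the second probe, 0.044 with Cy5 above background on 2 arrays, -0.0073 on 4 arrays, 0.12 with normexp, 0.064 with loess and 0.070 with crossed labels. The female change, -0.11, was 0.16 with normexp, 0.031 with Cy5 raised, 0.13 with crossed labels and -0.26 with middling input.

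Of 892 values of named islands under other settings, 750 kept direction and side of the threshold, 62 fell below it, 44 rose past it and 36 changed sign. With normexp the sign changed for Fgf12 (-0.0028), Bmp8a (0.12), Vps29 (0.23), Pcdhga12 (0.065), Peg3 (-0.026), Ezh2 (0.14), Sycp1 (0.075) and the chr4:140257123-140259035 island (0.063). With Cy5 raised it changed for Fgf12 (-0.29), Peg3 (-0.12), Hs6st3 (0.10), the chr12:70297724-70299207 island (0.00033) and the chr4:140257123-140259035 island (0.21). With 1 edge probe it changed for the chr17:33821627-33822644 island (-0.00040), Fgf12 (-0.019), Peg3 (-0.53) and Kdm7a (-1.25), and with the outermost probe for Peg3 (-0.32) and Kdm7a (-1.01). With the second probe it changed for Rarg (-0.11), Unc5b (-1.32), Grb10 (-0.23), the chr12 island (1.08) and the chr4 island (0.21). With both channels above background on 4 arrays it changed for Fgf12 (-0.16), Grb10 (-0.66) and Peg3 (-0.36), and with Cy5 on 2 arrays for Grb10 (-0.39) and Kdm7a (-0.14). With middling input it changed for Kdm7a (-0.99), with medians of probes for Kdm7a (-0.78) and the chr4 island (0.25), with loess (-0.22) and the series table (-0.40) for Grb10, with the narrower core for Unc5b (-0.26) and with gaps of at most 500 bp for the chr4 island (0.96).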
